A study of Mus musculus with 6 samples.

Results

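Interferon-stimulated genes were followed in the mouse renal cortex as 39 genes whose products are induced by interferons. They were found on the array by gene name. Of the 39 genes, 38 had a probe of that name, with 68 of the 56605 probes and 38 of the 24787 gene symbols on the array, and Ifitm2 had 0. Of these 68 probes, 51 were bright enough to be tested and stood for 34 genes. The other 17 probes were too dim, and they left Dhx58, Gbp7, Mx1 and Oas3 without a tested probe.

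The arrays held total RNA of the renal cortex from male mice aged 16 weeks, 3 arrays per group, and the labels state an 8 week treatment with HQD (Huangqi decoction, an herbal formula) without saying which arrays had it. The labels name the groups db/m, the non-diabetic control genotype, and db/db, which carries only mutated copies of the leptin receptor gene Lepr and becomes obese and diabetic. The study's methods instead describe treated and non-treated db/db mice of the C57BLKS/J strain, 3 of each. The label names were therefore kept as "labelled db/m" and "labelled db/db", and every difference below subtracts the labelled db/db mean from the labelled db/m mean. The comparison asked how the transcripts of the renal cortex differed between these groups.

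Interferons are secreted proteins that warn cells of infection. Type I interferons act through a complex that holds STAT2 and IRF9 and binds a DNA element called the interferon-stimulated response element (ISRE), and genes induced by type II interferon often carry a gamma-activated site (GAS). The induced proteins block viral entry, translation and replication, sense foreign RNA, or, as the guanylate-binding proteins and immunity-related GTPases do, attack the vacuoles of intracellular parasites. In the kidney they can be made by tubule, endothelial and immune cells alike, and in bulk tissue fewer cells of a type and less RNA per cell cannot be told apart.

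A level below is a log2 intensity minus the 75th percentile of its array, so a level of 0 marks that percentile. Between 51.6% and 59.1% of probes were well above background on an array, and no spot was saturated. Correlations between arrays over the tested probes ran from 0.981 to 0.993. Labelled db/m replicate 2 correlated better with labelled db/db replicate 3 (r = 0.992) than with labelled db/m replicate 1 (r = 0.982) or 3 (r = 0.988). Labelled db/db replicate 3 in turn correlated less with replicates 1 (r = 0.987) and 2 (r = 0.988) of its own group than with labelled db/m replicate 2. The Lepr probe for the transcript NM_001122899 (mm9 chr4:101486122-101486181) read -1.50, -4.33 and -1.35 in labelled db/m replicates 1, 2 and 3, and -3.62, -4.29 and -3.78 in the arrays labelled db/db. Labelled db/m replicate 2 thus lay at the labelled db/db level on this probe, where it was not well above background. A second probe (mm9 chr4:101464615-101464674) was well above background only in labelled db/m replicates 1 and 3. The brightest Lepr probe (mm9 chr4:101452666-101452725) had another order. It read 1.36, 1.58 and 1.16 in labelled db/m and 0.59, 0.64 and 1.63 in labelled db/db, so that labelled db/m replicate 2 lay with its group and labelled db/db replicate 3 lay above both others of its own. Whether either probe spans the mutated base was not established, so they give no genotype, and whether labelled db/m replicate 2 carries its labelled genotype was not settled. Member results are given with and without labelled db/m replicate 2.

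With all 6 arrays, few members differed. At an unadjusted limma p under 0.05, 2 of 34 tested member genes were higher in labelled db/m (Oas1a and Oas2), where 5.33% of all 15530 tested genes were, and 2 were lower (Irgm1 and Irgm2), where 9.99% of all genes were. No probe on the array passed a Benjamini-Hochberg adjustment over all 29890 tested probes (0% called), although 5294 of them (17.7%) had an unadjusted p under 0.05. The smallest adjusted p of a member was 0.241. The groups did not overlap for 2 members that were higher, against 6.25% of all genes, and for 2 that were lower, against 16.6%. These shares were near or below those of all genes. The median difference over the member genes was 0.18, beside -0.05 over all tested genes. With each array centred on its median instead, the member median was -0.01, beside -0.24 over all genes. Under the 75th percentile scaling, leaving out single arrays moved the member median between 0.09 and 0.34.

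Without labelled db/m replicate 2, 15 of the 34 member genes (44.1%) were higher at an unadjusted p under 0.05, against 9.63% of all genes, and 3 (8.82%) were lower, against 14%. With median centring 7 members (20.6%) were higher, against 4.94% of all genes. Both remaining labelled db/m arrays lay above all labelled db/db arrays for 18 members, where 16.1% of all genes did, and below all of them for 4, where 31.8% did. The median difference over the members was then 0.34, beside -0.07 over all genes. After adjustment over all probes, 90 probes passed (0.301%), and 1 of them was a member, the probe of Ifit2. Leaving out labelled db/db replicate 3 instead let 120 of the 29890 probes pass, 0 of them members. In that fit 2 members were higher and 0 lower at an unadjusted p under 0.05, against 9.16% and 12.5% of all genes.

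The order of the arrays was also counted. Labelled db/m replicate 3 was the highest of the 6 arrays for 17 of 34 members (50%), beside 10.5% of all genes, while labelled db/m replicate 1 was the highest for 6 (17.6%), near the 16.5% of all genes. Labelled db/m replicate 2 was the highest for 0 members, beside 14.7% of all genes, and the lowest of its group for 26 (76.5%), beside 30.1% of all genes. For 24 members it was both the lowest of its group and no higher than the highest labelled db/db array (70.6%, beside 27% of all genes). Within labelled db/db, replicate 2 was the lowest of all arrays for 10 members (29.4%, beside 12.6%) and replicate 3 the highest for 7 (20.6%, beside 9.52%).

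**Figure D1:**
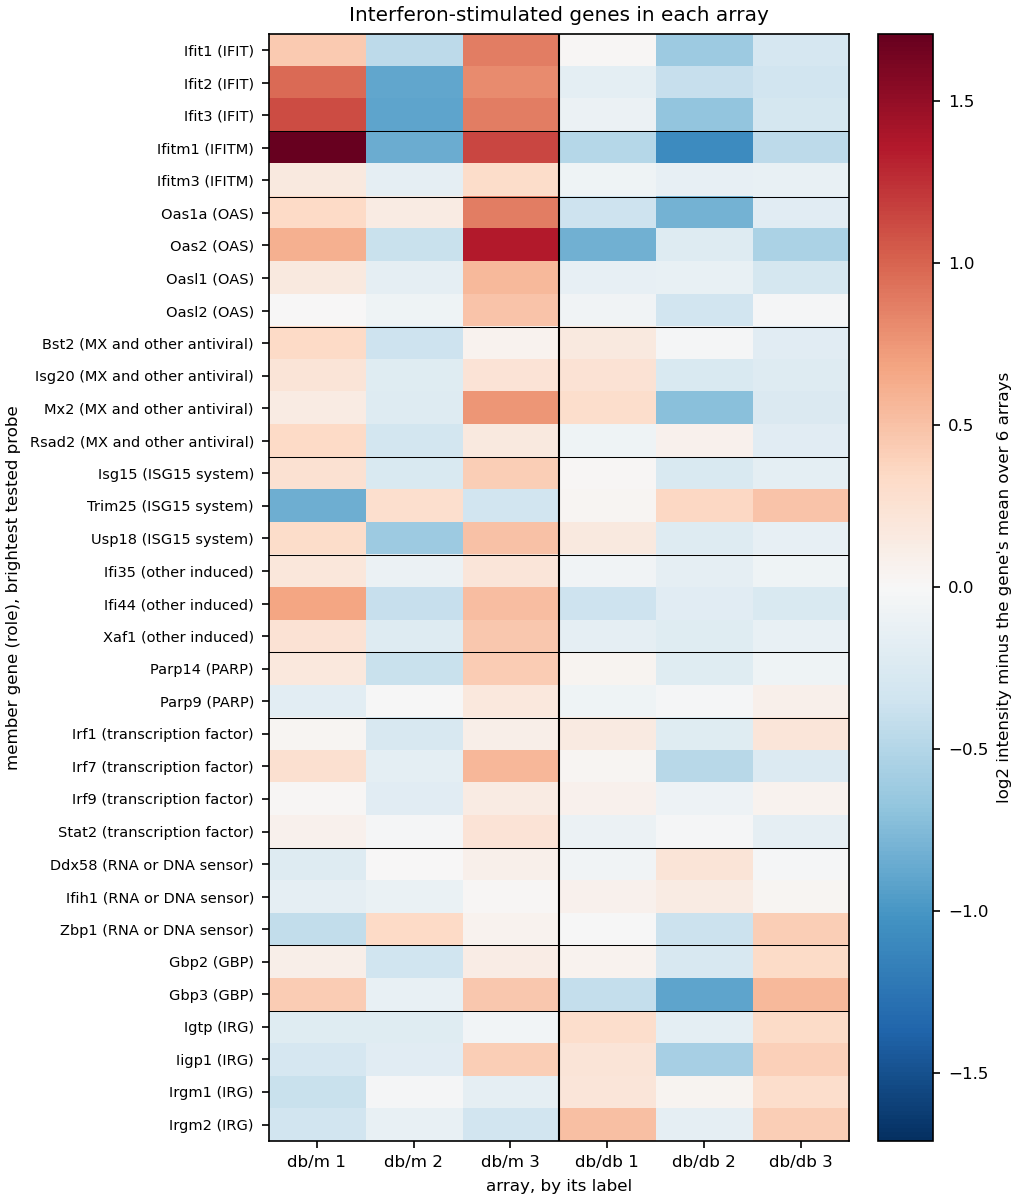
Heat map of the 34 tested member genes (rows, grouped by role) in the 6 arrays (columns), showing the log2 intensity of the brightest tested probe minus that gene's mean over the 6 arrays. Most rows of the IFIT, IFITM and OAS groups are red in labelled db/m replicates 1 and 3 and pale or blue in replicate 2, while the IRG rows are pale red in labelled db/db replicates 1 and 3 (Iigp1 also in labelled db/m replicate 3).

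The promoters were searched for what these genes share in sequence. RefSeq promoters (GRCm38.p6, from 250 bases before to 50 bases after an annotated start) were given for 30 of the 39 members, with 36 entries. The 9 members with no entry were Oas2, Mx1, Mx2, Dhx58, Usp18, Iigp1, Zbp1, Parp9 and Parp14. The ISRE core was searched on both strands as GAAA, any 2 bases and GAAA again, and occurred in promoters of 18 of the 30 genes (60%), beside 3.99% of the 27025 genes with a promoter. The GAS core TTCNNNGAA, which reads alike on both strands, occurred in 10 genes (33.3%), beside 9.55%. Both cores occurred in 6 genes. A match is a description of the letters and not a binding site shown to be used.

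Among the members described first, Oas1a, Ifit3 and Irgm2 are shown whole because they differ in the direction of their expression difference, with the ISRE cores in capitals. In Oas1a (chr5:120907476-120907775, minus strand) 2 cores overlap just before the start. Ifit3 (chr19:34583279-34583578, plus strand) holds 2 separate cores, both read on the other strand. Irgm2 (chr11:58214727-58215026, plus strand) holds 1 core.

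Oas1a: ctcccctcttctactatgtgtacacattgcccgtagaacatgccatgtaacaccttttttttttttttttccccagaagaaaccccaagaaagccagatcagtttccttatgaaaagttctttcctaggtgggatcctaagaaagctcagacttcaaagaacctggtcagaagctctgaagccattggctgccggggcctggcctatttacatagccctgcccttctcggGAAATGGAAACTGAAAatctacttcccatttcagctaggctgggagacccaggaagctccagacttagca
Ifit3: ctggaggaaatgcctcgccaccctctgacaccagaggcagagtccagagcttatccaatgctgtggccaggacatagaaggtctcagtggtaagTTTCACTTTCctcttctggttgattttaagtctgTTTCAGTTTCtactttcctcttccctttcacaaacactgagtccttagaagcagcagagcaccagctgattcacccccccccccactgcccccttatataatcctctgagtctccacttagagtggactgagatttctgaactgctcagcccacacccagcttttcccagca
Irgm2: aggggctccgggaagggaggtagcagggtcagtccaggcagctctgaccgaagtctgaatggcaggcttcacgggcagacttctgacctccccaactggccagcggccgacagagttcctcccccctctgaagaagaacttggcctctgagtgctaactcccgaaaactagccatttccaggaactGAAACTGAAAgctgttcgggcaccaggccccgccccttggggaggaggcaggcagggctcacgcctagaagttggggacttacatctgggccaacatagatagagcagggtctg

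Windows of 30 bases each show 1 core in capitals for other members, since the same 10 letters recur with different central bases. Where cores overlap, the others stand in lower case. Isg15 carries 3 overlapping cores, of which the first starts at -78 from the start site and the marked one at -72. The Irgm1 window marks the core at -24 and not the overlapping one at -30.

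Isg15: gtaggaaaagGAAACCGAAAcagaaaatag
Ifit1: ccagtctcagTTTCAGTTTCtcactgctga
Irgm1: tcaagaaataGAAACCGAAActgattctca
Igtp: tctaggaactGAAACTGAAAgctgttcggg
Irgm2: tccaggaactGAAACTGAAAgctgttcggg
Gbp2: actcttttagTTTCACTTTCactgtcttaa

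In Igtp and Irgm2 a GAS core stands 2 bases before the ISRE core, without overlap. The windows below mark it in capitals, beside those of Bst2, Irf1 and Gbp7.

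Igtp: aactagccatTTCTAGGAActgaaactgaa
Irgm2: aactagccatTTCCAGGAActgaaactgaa
Bst2: tctaggggcaTTCCAGGAAaatgaaactga
Irf1: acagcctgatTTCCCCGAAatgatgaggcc
Gbp7: tccgttttctTTCCAGGAAaagcagaagct

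The 27 ISRE matches lay between -222 and 32 bases from the start site, with the median at -59, and 21 lay within the 150 bases before it. By role, all 3 GBP and all 3 IRG genes with an entry held an ISRE core, as did 2 of 3 IFIT, 2 of 4 OAS and 1 of 4 transcription factor genes. Ifitm1, Xaf1, Ifi44, Irf7 and Oasl1 had 0 matches of either core in this window. Members that were higher and members that were lower in labelled db/m both held the core.

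**Figure D2:**
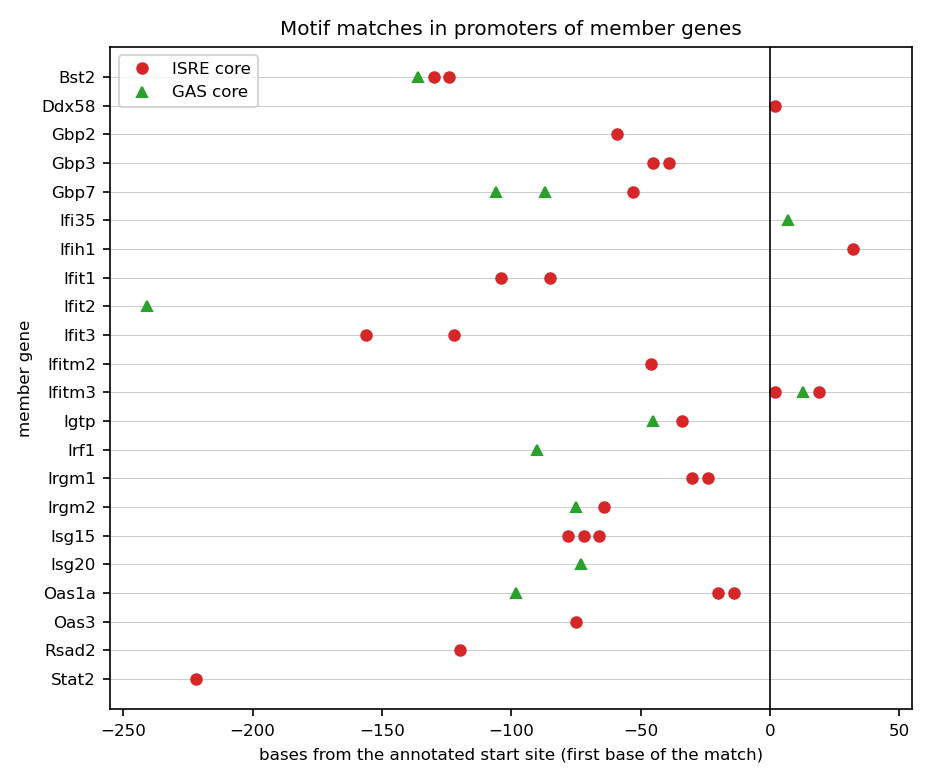
Positions of ISRE core matches (red circles) and GAS core matches (green triangles) in the promoters of member genes, in bases from the annotated start site (0, vertical line), for genes with at least 1 match. Most ISRE matches lie within 150 bases before the start site.

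The IFIT proteins bind viral RNA that lacks the cap marks of host messages and block its translation. Ifit3 (mm9 chr19:34663105-34663164), the brightest of them, read 2.73, 0.72 and 2.49 in labelled db/m replicates 1, 2 and 3 and 1.51, 0.94 and 1.31 in labelled db/db. Labelled db/m replicates 1 and 3 lay above every labelled db/db array and replicate 2 lay below them all. The difference was 0.73 ± 0.51 (SE) with all arrays (adjusted p = 0.444) and 1.36 ± 0.20 without that replicate (adjusted p = 0.0593). Leaving out replicate 1 or 3 of labelled db/m instead gave 0.36 and 0.48.

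Ifit2 (mm9 chr19:34650244-34650303) read -0.54, -2.39 and -0.70 in labelled db/m and -1.67, -1.90 and -1.84 in labelled db/db. Here too replicate 2 was the lowest of all 6 arrays. The difference was 0.60 ± 0.47 (adjusted p = 0.49) with all arrays and 1.19 ± 0.14 without replicate 2, and the latter passed the adjustment over all probes (adjusted p = 0.0453). That adjusted call was lost when labelled db/db replicate 3 was left out as well (1.17), and leaving out replicate 1 or 3 of labelled db/m alone gave differences of 0.26 and 0.34. Ifit1 read -2.15, -3.04 and -1.72 against -2.58, -3.22 and -2.88, with replicates 1 and 3 again above every labelled db/db array and replicate 2 inside their range. Its difference was 0.59 ± 0.34 (adjusted p = 0.376), or 0.96 ± 0.23 without replicate 2 (adjusted p = 0.115). Of these 2 fits, the 3 IFIT genes passed an unadjusted p under 0.05 in the one without that array, where 9.63% of all genes were higher. Their median difference without it stayed above 0 under every scaling tried, between 0.98 and 1.19.

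The IFITM proteins sit in membranes and hinder the fusion of viruses with the cell. Ifitm1 (mm9 chr7:148155659-148155718) had the largest difference of all members. It read 2.59, 0.03 and 2.02 in labelled db/m and 0.40, -0.19 and 0.44 in labelled db/db, so that replicate 2 lay within the labelled db/db range. The difference was 1.33 ± 0.62 (adjusted p = 0.307), and 2.09 ± 0.26 without replicate 2 (adjusted p = 0.0514), but 0.81 without replicate 1. Ifitm3 was bright and differed little, at 2.72, 2.40 and 2.87 against 2.48, 2.41 and 2.43. Its difference was 0.22 ± 0.14 (adjusted p = 0.422), or 0.35 ± 0.12 without replicate 2 (adjusted p = 0.171).

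The OAS enzymes sense double-stranded RNA and make the 2-5A messenger that activates RNase L. Oas1a (mm9 chr5:121346735-121346794) had the smallest unadjusted p among the brightest member probes. It read -0.14, -0.34 and 0.39 in labelled db/m and -0.83, -1.28 and -0.67 in labelled db/db, and the groups did not overlap. With 3 arrays a group, the smallest two-sided p of an exact permutation test is 0.1, which groups without overlap reach. The limma difference was 0.90 ± 0.24 (adjusted p = 0.241) and 1.05 ± 0.24 without replicate 2 (adjusted p = 0.111).

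Oas2 (mm9 chr5:121180343-121180402) read -1.81, -2.80 and -1.06 in labelled db/m and -3.23, -2.63 and -2.96 in labelled db/db. Replicate 2 again lay inside the labelled db/db range. The difference was 1.05 ± 0.42 (adjusted p = 0.272) and 1.51 ± 0.27 without replicate 2 (adjusted p = 0.0894). Leaving out any other single array ended its unadjusted call, with 0.64 without labelled db/m replicate 3 and 0.91 to 1.20 without each of the others. Under quantile normalization it no longer passed the unadjusted threshold with all arrays. Oasl1 and Oasl2, OAS relatives, had differences of 0.38 ± 0.19 (adjusted p = 0.324) and 0.28 ± 0.18 (adjusted p = 0.423), or 0.55 ± 0.16 and 0.39 ± 0.19 without replicate 2, where Oasl1 passed an unadjusted p under 0.05. Oas3 was well above background only in labelled db/m replicate 3, at -1.75, and was dim on the other 5 arrays.

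**Figure D3:**
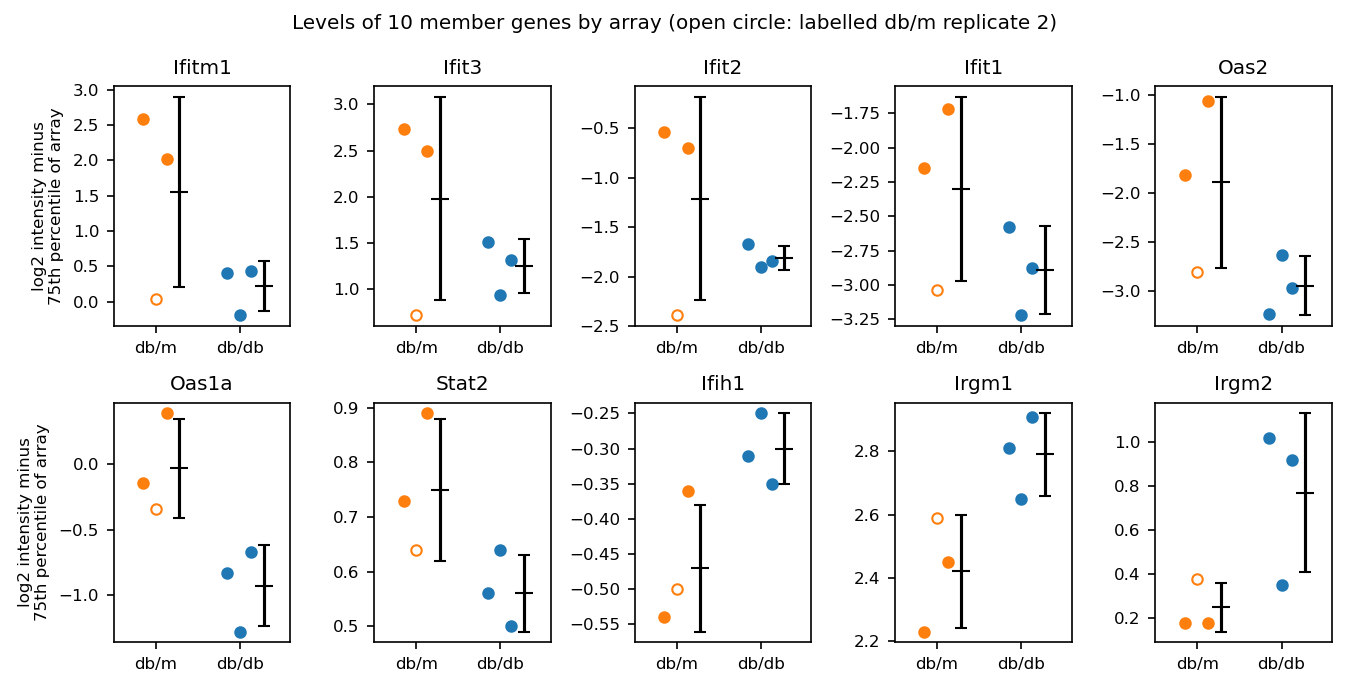
Log2 intensity minus the 75th percentile of the array for 10 member genes, 1 circle per array, with the mean and SD of each group of 3 in black. Labelled db/m replicate 2 (open circle) lies below every labelled db/db array for Ifit2 and Ifit3 and within their range for Ifitm1, Ifit1 and Oas2, while Oas1a is higher and Irgm1 lower in every labelled db/m array.

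Among the other antiviral effectors, 4 of 5 were tested, and by their brightest probes 0 passed an unadjusted p under 0.05 in either fit. Bst2 encodes tetherin, which holds budding virions at the cell surface, and its difference was 0.03 ± 0.20 (adjusted p = 0.947). Rsad2 encodes viperin, a radical SAM enzyme, and its difference was 0.13 ± 0.19 (adjusted p = 0.717). Mx2 and Isg20 gave 0.45 (adjusted p = 0.464) and 0.17 (adjusted p = 0.639). Without replicate 2 the differences were 0.21 for Bst2, 0.32 for Rsad2, 0.68 for Mx2 and 0.31 for Isg20. A dimmer Rsad2 probe gave 0.40 ± 0.14 in that fit and passed the unadjusted threshold (adjusted p = 0.167). A dimmer Isg20 probe gave -0.26 ± 0.43 with all arrays. Mx1 was dim except in labelled db/m replicate 2, where its probe at mm9 chr16:97668644-97668703 read -1.25. That array was the lowest of its group for most tested members, and the second Mx1 probe was dim on all arrays.

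Isg15 encodes a ubiquitin-like modifier, Usp18 the protease that removes it, and Trim25 a ligase that can attach it. Isg15 read 1.32, 0.80 and 1.48 in labelled db/m and 1.08, 0.81 and 0.90 in labelled db/db. Labelled db/m replicates 1 and 3 were the highest. The difference was 0.27 ± 0.19 (adjusted p = 0.463), or 0.47 ± 0.14 without replicate 2 (adjusted p = 0.144). Usp18 gave 0.13 ± 0.30 (adjusted p = 0.822), or 0.48 ± 0.16 without replicate 2 (adjusted p = 0.168). The Trim25 probes disagreed. The brightest gave -0.59 ± 0.29 (adjusted p = 0.319) and another 0.01 ± 0.18 (adjusted p = 0.983), or -0.88 ± 0.21 and -0.10 ± 0.18 without replicate 2. The first holds a 2-base repeat 30 bases long in its 60 bases, and whether it reads other transcripts was not tested.

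In Ifi44, Xaf1 and Ifi35, labelled db/m replicates 1 and 3 also lay above every labelled db/db array. Ifi44, a GTP-binding-like protein, read 0.72, -0.36 and 0.57 in labelled db/m and -0.32, -0.15 and -0.22 in labelled db/db. Its difference was 0.54 ± 0.28 (adjusted p = 0.337), or 0.87 ± 0.13 without replicate 2 (adjusted p = 0.0609). Xaf1 encodes an antagonist of the apoptosis inhibitor XIAP. Its brightest probe gave 0.33 ± 0.18 (adjusted p = 0.365). A dimmer Xaf1 probe (mm9 chr11:72122169-72122228) read -2.54, -2.76 and -2.21 against -2.95, -3.24 and -3.17, and its groups did not overlap (difference 0.62 ± 0.17, adjusted p = 0.241, or 0.75 ± 0.16 without replicate 2). Ifi35 was bright and differed by 0.19 ± 0.13 (adjusted p = 0.424). Without replicate 2 the brightest Xaf1 and Ifi35 probes gave 0.52 ± 0.13 and 0.29 ± 0.12. All 3 brightest probes then passed an unadjusted p under 0.05, where 9.63% of all genes were higher.

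Parp9 and Parp14 encode ADP-ribosyltransferase family members of the interferon response. By their brightest probes, their differences were -0.01 ± 0.13 (adjusted p = 0.984) and 0.16 ± 0.21 (adjusted p = 0.694). Without replicate 2 these gave 0.00 ± 0.15 and 0.39 ± 0.15 (adjusted p = 0.197 for Parp14). Dimmer tested probes gave 0.47 ± 0.31 for Parp9 (adjusted p = 0.431) and 0.65 ± 0.29 for Parp14 (adjusted p = 0.295) with all arrays. The dimmer Parp14 probe was well above background on 2 labelled db/db arrays, and so was tested only through the group in which it was higher.

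Of the 4 transcription factors, Irf7, which drives the second wave of type I interferon, had a difference of 0.45 ± 0.22 (adjusted p = 0.322), or 0.65 ± 0.19 without replicate 2 (adjusted p = 0.139). Stat2 (mm9 chr10:127729834-127729893), a subunit of the ISRE-binding complex, read 0.73, 0.64 and 0.89 in labelled db/m and 0.56, 0.64 and 0.50 in labelled db/db. The groups did not overlap, by less than the last digit shown. Its difference was 0.19 ± 0.12 (adjusted p = 0.397), or 0.24 ± 0.13 without replicate 2. Irf1 and Irf9 gave -0.09 (adjusted p = 0.764) and -0.02 (adjusted p = 0.933), or 0.02 and 0.07 without replicate 2.

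By their brightest probes, the 3 tested cytosolic sensors had differences below 0. Ifih1 encodes MDA5, which recognises long double-stranded RNA (probe at mm9 chr2:62435621-62435680). It read -0.54, -0.50 and -0.36 in labelled db/m and -0.31, -0.25 and -0.35 in labelled db/db, without overlap by 0.01. Its difference was -0.17 ± 0.11 (adjusted p = 0.419), or -0.15 ± 0.13 without replicate 2. Ddx58, which encodes RIG-I, and Zbp1, a sensor of Z-form nucleic acid, gave -0.09 (adjusted p = 0.731) and -0.02 (adjusted p = 0.968), or -0.11 and -0.19 without replicate 2. The dimmer tested Ddx58 probes disagreed, at 0.20 ± 0.22 and -0.48 ± 0.49 with all arrays. Dhx58, which encodes LGP2, was well above background on 2 arrays of each group and had no test.

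The 4 immunity-related GTPases (IRG), which act on vacuoles and autophagy, all had differences below 0 with all arrays, with a median of -0.34. Irgm1 had 3 tested probes, and all 3 gave lower readings in every labelled db/m array. The brightest (mm9 chr11:48679069-48679128) read 2.23, 2.59 and 2.45 in labelled db/m and 2.81, 2.65 and 2.91 in labelled db/db. Its difference was -0.37 ± 0.14 (adjusted p = 0.26). The other 2 gave -0.60 ± 0.11 (adjusted p = 0.241) and -0.39 ± 0.15 (adjusted p = 0.262). Without replicate 2 the 3 probes gave -0.45, -0.65 and -0.49. The brightest no longer passed an unadjusted p under 0.05 without labelled db/m replicate 1 or 3 or labelled db/db replicate 1 or 3, at -0.38 to -0.27.

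Irgm2 (mm9 chr11:58036064-58036123) read 0.18, 0.38 and 0.18 in labelled db/m and 1.02, 0.35 and 0.92 in labelled db/db. Labelled db/db replicates 1 and 3 were higher than the other 4 arrays, and replicate 2 lay among the labelled db/m values. The difference was -0.52 ± 0.19 (adjusted p = 0.26), or -0.58 ± 0.22 without labelled db/m replicate 2 (adjusted p = 0.194). Leaving out the same single arrays as for Irgm1 ended its unadjusted call, at -0.49 to -0.39. Under quantile normalization Irgm2 still passed the unadjusted threshold and the brightest Irgm1 probe did not. Igtp differed by -0.31 ± 0.16 (adjusted p = 0.35) and Iigp1 by -0.04 ± 0.30 (adjusted p = 0.951), or by -0.28 and 0.05 without labelled db/m replicate 2. The Iigp1 probes disagreed, since a dimmer one gave -0.47 ± 0.25 with all arrays (adjusted p = 0.338). Without labelled db/m replicate 2 it gave -0.67 ± 0.23 and passed the unadjusted threshold (adjusted p = 0.172).

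Of the guanylate-binding proteins (GBP), Gbp3 read -1.84, -2.41 and -1.82 in labelled db/m and -2.69, -3.18 and -1.72 in labelled db/db, and Gbp2 ran from -2.07 to -1.40 over the 6 arrays. In both, replicate 2 was the lowest of each group and labelled db/db replicate 3 the highest array of all. The differences of Gbp2 and Gbp3 were -0.08 ± 0.20 (adjusted p = 0.837) and 0.51 ± 0.37 (adjusted p = 0.466), or 0.07 ± 0.19 and 0.70 ± 0.40 without labelled db/m replicate 2. Gbp7 was too dim to test.

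Set side by side, the 28 tested members other than GBP and IRG genes had a median difference of 0.21 with all arrays and 0.39 without labelled db/m replicate 2. The 2 GBP genes had 0.21 and 0.38, and the 4 IRG genes had -0.34 and -0.36. Without that array 15 of the 28 were higher and 1 lower at an unadjusted p under 0.05, 0 GBP genes passed, and 0 IRG genes were higher and 2 lower, where 9.63% of all genes were higher and 14% lower. These values moved with the scaling. Without that array, 0 IRG genes were lower under quantile normalization or in the authors' log2 values, against 10% and 9.93% of all genes. With median centring 7 of the 28 were higher, against 4.94% of all genes. Their median was then 0.19, or 0.02 with all arrays. The differences between these sets were not tested.

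**Figure D4:**
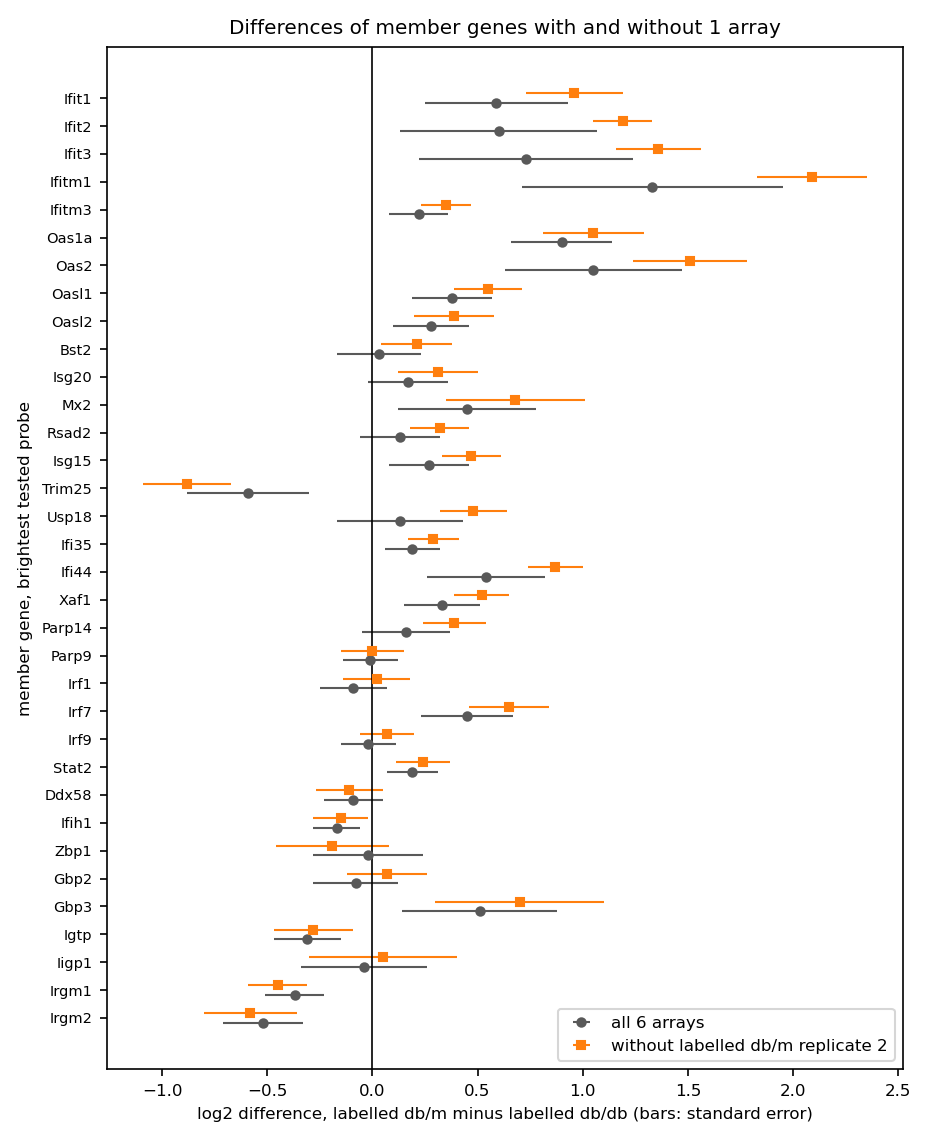
Log2 difference (labelled db/m over labelled db/db) of the 34 tested member genes with its standard error, with all 6 arrays (grey circles) and without labelled db/m replicate 2 (orange squares). Leaving the array out moved Ifitm1 from 1.33 to 2.09 and Ifit2 from 0.60 to 1.19, with shorter bars, and left Irgm1 and Irgm2 below 0.

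The upstream genes of the pathway were read from a separate list of 48 ligands, receptors, kinases, sensors, IRFs and inhibitors, of which 39 were tested. At an unadjusted p under 0.05, 6 were higher and 2 were lower in labelled db/m, where 5.33% and 9.99% of all genes were, and the median difference was 0.02. Where all 6 arrays had to be well above background, 4 were higher and 2 lower, against 4.49% and 11% of the 14755 genes that this filter kept. Without labelled db/m replicate 2 the list gave 5 higher and 3 lower, against 9.63% and 14% of all genes, with a median of -0.01 and 0 ligands among the 5. Ifna1 and Ifna5, type I interferons, read higher by 0.74 (adjusted p = 0.275) and 0.86 (adjusted p = 0.248), were dim on 2 of the 3 labelled db/db arrays and so were tested only through the group in which they were higher, and are near-identical to other interferon alpha genes, so the source of the signal is uncertain. With slide as a fixed block, a fit whose difference rests on 1 array of each group, they turned to -0.16 and -0.07. They were the highest in labelled db/m replicate 2 (-2.78 and -2.26), the array in which most members were the lowest of their group. Ifnb1, Ifng and Ifna4 had 0 arrays well above background.

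Of the receptors, Ifnlr1, the lambda interferon receptor, read -0.35, -0.53 and -0.10 in labelled db/m and -0.90, -0.77 and -0.87 in labelled db/db, without overlap (difference 0.52 ± 0.14, adjusted p = 0.241). The receptors Ifnar1 and Ifngr1 gave -0.03 and 0.03. Mb21d1, which encodes the DNA sensor cGAS, was higher by 0.67 ± 0.15 (adjusted p = 0.241), and Tlr4, a sensor of bacterial lipopolysaccharide, by 0.56 ± 0.23 (adjusted p = 0.276). With slide as a fixed block Tlr4 turned to -0.10, and it no longer passed without labelled db/m replicate 2 or 3 or without replicate 1 or 2 of labelled db/db, at 0.43 to 0.58. The inhibitor Socs1 was higher by 0.34 ± 0.14 (adjusted p = 0.272). The kinases Jak2 and Tbk1 were lower, with differences of -0.49 ± 0.14 (adjusted p = 0.241) and -0.33 ± 0.12 (adjusted p = 0.26). With all arrays, these genes other than Ifnar1 and Ifngr1 passed the unadjusted threshold, and 0 passed the adjustment. With slide as a fixed block the calls of Tlr4, Mb21d1, Ifnlr1, Jak2 and Tbk1 ended. The differences were then 0.33 for Mb21d1, 0.53 for Ifnlr1, -0.16 for Jak2 and -0.10 for Tbk1. Socs1 was not followed by itself under the alternatives. With median centring Ifnlr1 (0.34) and Tlr4 (0.38) no longer passed. The 3 higher pathway genes were then Ifna1, Ifna5 and Mb21d1, so Socs1 did not pass there either. Tbk1 did not pass without either labelled db/m replicate 2 or 3 or without replicate 1 or 2 of labelled db/db (-0.35 to -0.27).

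A second list held 63 further interferon-induced genes, of which 50 were tested. Here 3 were higher and 4 lower at an unadjusted p under 0.05 (against 5.33% and 9.99% of all genes), with a median difference of 0.01. The higher ones were Trim30a (0.65 ± 0.20, adjusted p = 0.241), a regulator of NF-kappa B signalling, Gbp5 (0.57 ± 0.14, adjusted p = 0.241), a guanylate-binding protein, and Sp100 (0.42 ± 0.13, adjusted p = 0.241), a nuclear body protein. The lower ones were Oas1c (-0.45 ± 0.18, adjusted p = 0.276), the immunoproteasome subunit Psmb8 (-0.39 ± 0.16, adjusted p = 0.279), the secreted glycoprotein Lgals3bp (-0.34 ± 0.12, adjusted p = 0.255) and the class I molecule H2-D1 (-0.25 ± 0.10, adjusted p = 0.275). The Lgals3bp probes disagreed: a dimmer one, well above background on 1 labelled db/db array only, made the mean over both 0.31, and the brightest no longer passed under quantile normalization (-0.22). H2-D1 gave -0.08 there, and its call ended on leaving out any 1 array. With slide as a fixed block Oas1c was -0.07, Psmb8 -0.48, Gbp5 0.31 and Sp100 0.56, and none of the 4 passed. With median centring Gbp5 (0.39) and Sp100 (0.23) did not pass. Without labelled db/m replicate 2 the calls of Oas1c (-0.33) and Psmb8 (-0.31) ended, and without labelled db/db replicate 2 that of Trim30a (0.52). Without labelled db/m replicate 2 it gave 8 higher and 2 lower, against 9.63% and 14% of all genes.

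Markers of cell types were read from a list of 49 genes, of which 41 were tested. At an unadjusted p under 0.05, 5 were higher and 1 was lower in labelled db/m with all arrays, where 5.33% and 9.99% of all genes were, and 9 were higher and 5 lower without labelled db/m replicate 2, where 9.63% and 14% were. Of 4 leukocyte markers, 2 were higher in both fits, Ptprc by its brightest probe (0.54 ± 0.16 with all arrays) and Laptm5, which was well above background on 1 labelled db/db array only and so was tested only through the group in which it was higher. The Ptprc probes disagreed, since the one for NM_011210 that was well above background on all arrays gave 0.02 ± 0.12 and the other tested probe gave 0.83 ± 0.25. Cd52 and Coro1a differed by 0.14 ± 0.14 and 0.06 ± 0.14 with all arrays, and their groups overlapped. A mean over the 4 is not given, since it would include Laptm5. Of 9 macrophage and monocyte markers, 3 were higher and 0 lower, with a mean level of 0.58, 0.43 and 0.56 against 0.16 to 0.42. These macrophage means rest most on the bright Ly6c2, Csf1r and Lyz2. The median of the 9 genes, each centred on its mean over the arrays, was 0.02, 0.03 and 0.10 in labelled db/m, so replicate 2 did not stand apart by that measure.

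Fewer markers of the other leukocyte types could be tested. The 3 tested of 4 neutrophil markers had a median difference of 0.61, with 0 passing and mean levels of 0.94, -0.50 and -0.81 in labelled db/m and -1.56 to -0.10 in labelled db/db. The 3 tested of 6 T and NK cell markers ran from -2.26 to -1.59 against -2.22 to -1.56, and the 1 tested B cell marker from -3.76 to -3.33 against -5.25 to -3.40. In labelled db/db replicates 1 and 2 the B cell marker (-4.40 and -5.25) lay below the lowest detected signal (-3.80 and -3.86). It was thus tested only through the group in which it was higher. The T and NK markers Cd3g and Ncr1 and the B cell marker Cd79a were well above background on 0 of 6 arrays, and neither of the 2 plasmacytoid dendritic cell markers could be tested.

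Markers of kidney cells also varied with the arrays. The mean level of 5 proximal tubule markers was 6.39, 7.21 and 6.79 in labelled db/m replicates 1, 2 and 3 and 7.01 to 7.31 in labelled db/db. That of 2 distal convoluted tubule markers was 3.27, 3.90 and 3.38 against 3.84 to 4.14. By these means, replicates 1 and 3 were lower than all labelled db/db arrays and replicate 2 lay among them in both segments. Neither distal marker showed that order by itself. Pvalb read 4.17, 5.15 and 4.62 in labelled db/m against 4.44 to 4.86. Slc12a3 read 2.38, 2.66 and 2.14 against 3.24 to 3.42. Without replicate 2, 4 of the 5 proximal tubule markers were lower at an unadjusted p under 0.05, where 14% of all genes were. The distal tubule transporter gene Slc12a3 was lower in both fits (-0.92 ± 0.15 with all arrays, adjusted p = 0.241).

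The means of 2 podocyte markers were 1.25, 2.71 and 1.98 against 1.78 to 2.47, those of 2 thick ascending limb markers 7.50, 6.25 and 6.90 against 6.60 to 6.95, and those of 2 collecting duct markers 2.05, 1.41 and 1.65 against 1.55 to 1.64. The 8 endothelial markers had means of 1.74, 1.48 and 1.89 against 1.53 to 1.75. By these means, replicate 2 was the lowest of all 6 arrays for the thick ascending limb, collecting duct and endothelium. By the median of the centred endothelial genes it was not (-0.15, beside -0.20 in labelled db/db replicate 1). Nor was it for Aqp2 alone (3.35, beside 3.33 in labelled db/db replicate 3). Of the endothelial markers, 2 were higher at an unadjusted p under 0.05 without labelled db/m replicate 2 (Emcn, which encodes endomucin, by 0.56 ± 0.13, and Cdh5). The other 6 did not pass. Among those, Kdr, a receptor of vascular growth factor, gave -0.25 ± 0.12, and Tek, Tie1 and Plvap gave 0.21, 0.09 and 0.08. The collecting duct markers went opposite ways, with 0.78 ± 0.20 for the water channel gene Aqp2, which passed, and -0.28 ± 0.14 for the proton pump subunit gene Atp6v1g3, which did not. The part of cell composition in the results for the members was not tested.

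The arrays lay on 3 slides, and only slide 1 held both groups (replicate 1 of labelled db/m with replicate 3 of labelled db/db). Within it the differences were 2.15 for Ifitm1, 1.42 for Ifit3, 1.30 for Ifit2, 1.15 for Oas2, 0.54 for Oas1a, -0.68 for Irgm1 and -0.74 for Irgm2, with 1 array a group. Each kept its direction, but they were chosen for differences that include the arrays of slide 1. Gbp3 turned from 0.51 with all arrays to -0.12 within slide 1. A fit with slide as a fixed block takes its difference from slide 1 alone, since the other slides each held a single group. With slide as a fixed block, 3 members were lower at an unadjusted p under 0.05, where 5.5% of all genes were. They were Irgm1, Trim25 by its brightest probe (-1.33) and Zbp1 (-0.85, beside -0.02 without the block). Oas1a, Oas2 and Irgm2 did not pass with that block. With slide as a random block Irgm1, Irgm2, Oas1a and Oas2 all passed.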

How the data were processed

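RNA of the renal cortex was labelled with Cy3 and hybridised to one-colour Agilent arrays, 1 per mouse. The authors extracted spot intensities with Agilent Feature Extraction 10.7.1.1, and the deposited intensity column is background-subtracted. Flags for spots well above background, per the file headers, were used as deposited (other values). The authors also deposited a table of log2 values, quantile-normalized, which was used as an alternative. Gene names came from the file of labelled db/db replicate 1, and probe positions are those of the mm9 build in the file headers. The values of labelled db/m replicate 1 carry 3 significant digits.

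Intensities were averaged over spots of a probe as log2, without outlier spots, and each array was then scaled by subtracting its 75th percentile. Tests covered the 29890 probes with a clear signal (the well-above-background flag) on each of the 3 arrays of at least 1 group. Genes were read from their brightest tested probe. Differences were tested with limma 3.58.1 in R 4.3.3 (lmFit and eBayes, two-sided) over all tested probes, with Benjamini-Hochberg adjustment, and the procedure was tested on simulated data. The number of arrays limits the precision. A member was described array by array where its brightest probe had an unadjusted p under 0.05, its groups did not overlap, or it was among the 5 largest differences. Others are given as ranges or examples. The members and lists were chosen with earlier results of these data known. 1 gene of the interferon pathway was left out of its list and is not reported here. Alternatives were other scalings, filters, tests and blocks, and leaving out each array.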

Additional observations from a re-analysis of the deposited data

How the results depend on the processing

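The counts of members depended on single arrays. Leaving out 1 array at a time gave 1 to 15 higher members (15 without labelled db/m replicate 2), 0 to 3 lower ones (0 without replicate 1 or 3 of either group), 0 to 1 member probes after adjustment, 2 to 6 higher and 1 to 3 lower pathway genes, and 2 to 8 higher and 0 to 5 lower further induced genes. Of all genes, 2.68% to 9.63% were higher and 3.59% to 14% lower in these fits. The median difference of the members ran from 0.09 to 0.34, within 0.24 of 0.18, the SD between arrays. Without both labelled db/m replicate 2 and replicate 3 of labelled db/db, an alternative chosen after seeing the data, 13 members were higher (against 13.9% of all genes) and 2 lower (against 17%), 8 pathway genes were higher and 5 lower, and 6 further induced genes were higher and 1 was lower. There 0 member probes passed the adjustment, so that the call of Ifit2 was lost.

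Against 2 higher and 2 lower members, quantile normalization, the authors' log2 values, no filter on dim probes and the methods' t-test each gave 1 and 1, where 5.27%, 5.26%, 3.73% and 3.41% of all genes were higher and 8.04%, 8.02%, 4.39% and 11.1% lower. Slide as a fixed block (2.94% of all genes higher, 5.5% lower) gave 0 higher and 3 lower members. It also gave 1 higher and 0 lower pathway genes and 7 lower further induced genes. Median centring (2.65% of all genes higher, 18.4% lower) moved the median difference of all probes by -0.18 and gave 4 lower members, 3 higher pathway genes, and 1 higher and 9 lower further induced genes, and the member median became -0.01. Under it the member median without labelled db/m replicate 2 was 0.14, beside -0.26 over all genes. With no filter, 3 pathway genes were higher, and 5 further induced genes were higher and 0 lower. The t-test gave 3 higher and 4 lower pathway genes and 2 lower further induced genes. With the replicate block (6.62% of all genes higher, 13.3% lower), 3 members were higher and 1 was lower. Same-numbered arrays of the 2 groups deviated together with correlations of 0.35, 0.15 and 0.05, and differently numbered ones with -0.34 to 0.15. Whether the replicate numbers pair the arrays was not settled. The slide block turned Ifna1 to -0.16, Ifna5 to -0.07 and Tlr4 to -0.10, and the mean over all its probes turned Lgals3bp to 0.31. The causes were not tested. Over 478 values of single named genes under all alternatives, 362 stayed on their side of an unadjusted p of 0.05, 103 were lost and 9 gained. Dim probes have only a bound, and the number of arrays limits every test.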
